A study of Mus musculus with 16 samples.

Results

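The comparison set wild-type bone marrow progenitors that had received the leukemia oncogene AML1-ETO9a against progenitors that carried a Myb mutation and had received no oncogene. It used 8 of the 16 arrays of the series, chosen by their titles: 4 arrays of wild-type cells with AML1-ETO9a and 4 arrays of Booreana cells with the control vector. The first group came from C57Bl/6 mice, and its cells were transduced with the retrovirus MSCV-AML1-ETO9a-I-GFP. The second came from Booreana mice, which carry a mutation in Myb, and its cells were transduced with MSCV-I-GFP, which carries only the green fluorescent protein. The other groups, Booreana AML1-ETO9a and wild-type control, held 4 arrays each and are given as levels beside single genes. All mice were 8 weeks old. In every group the bone marrow was enriched for c-Kit, the stem cell factor receptor of blood progenitors, transduced, grown with IL-3, IL-6 and SCF, and sorted 48 hours later for cells positive for both green fluorescence and c-Kit. The labels gave neither the zygosity of the mutation nor the strain that carries it. They named 4 Booreana mice and did not say whether each array was a separate animal, so the p-values measure the spread between these samples, which may be technical. The groups compared differ in genotype and in virus together, so the parts of the mutation and of the oncogene in a difference cannot be told apart within this comparison.

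Myb encodes c-Myb, a transcription factor that keeps blood progenitors dividing and that works with the coactivator p300, the protein the series title names beside it. It is known for turning on genes of immature myeloid cells, among them those of the granule proteases. The oncogene AML1-ETO9a joins RUNX1 (AML1), a master regulator of blood formation, to a shortened RUNX1T1 (ETO), a corepressor partner. Leukemias with the chromosome 8 and 21 translocation make it by alternative splicing. The fusion keeps the DNA-binding part of RUNX1 and is known for holding myeloid cells short of granulocyte maturation. The question addressed here was which genes separate the oncogene-only state from the mutation-only state, and which genes sit at the same level in both.

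Levels below are normalized log2 intensities of 1 probe per gene, given in the order of replicates 1 to 4. Differences are wild-type AML1-ETO9a minus Booreana control on the log2 scale, so 1 is a 2-fold change, with the standard error of the fit after ±. Of the 8 arrays, Booreana control replicate 2 stood apart. It detected 10158 probes, where the other 7 detected 11146 to 11804, and its mean correlation with the other arrays was 0.845, against 0.931 to 0.951 for the rest. Its median deviation from the arrays of its own group was 0.66 on the log2 scale, and that of the other 7 arrays ranged from 0.26 to 0.41. Results are therefore given with all arrays and, after "without replicate 2", from a refit without this array. A probe was tested where at least 4 of the 16 arrays detected it above background (detection p under 0.05). Cd34, a surface marker of stem and progenitor cells, was detected on all 8 arrays, and its difference of 0.69 did not pass (limma, adjusted p = 0.208). Of 11 early progenitor genes tested, Procr was higher and Gata2 and Meis1 were lower (27.3% of the list, where 8.31% of all genes differed). Their summed intensity was 5009 to 10590 in wild-type AML1-ETO9a cells and 14000 to 25375 in Booreana control cells, the highest on replicate 2. It was 4181 to 7453 in wild-type control cells. Here and below such a sum adds intensities on the linear scale, so its brightest genes set most of it. On Booreana control replicate 2, Gata2 alone, which is also on the mast cell and basophil list, made up most of the sum. The median difference of the 11 genes was -0.10. Whether the groups held equal shares of early progenitors was not tested. Kit itself had no probe under its name in the annotation, so it could not be tested whatever its level. B cell and T cell markers were largely under the detection limit: 3 of 12 on each list could be tested, and Cd79a, Pax5, Cd3e and Cd4 could not.

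With all arrays, 734 of 8833 genes differed at an adjusted p under 0.05, which is 8.31% of the genes tested (over probes, 926 of 12760, 7.26%). Of these, 333 (3.77%) were higher and 401 (4.54%) lower in wild-type AML1-ETO9a cells. A further count used no model: in 1017 genes (11.5%) the 4 arrays of one group did not overlap the 4 of the other, and 663 of the 734 called genes were among them. At least a 2-fold size was reached by 566 of the called genes, a 4-fold size by 176 and an 8-fold size by 54, with 26 of these higher and 28 lower. Without Booreana control replicate 2 the test called 779 genes (8.82%), 386 higher (4.37%) and 393 lower (4.45%). The 631 genes called both ways were 86.0% of the first set and 81.0% of the second, and all 631 had the same direction in both fits.

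**Figure D1:**
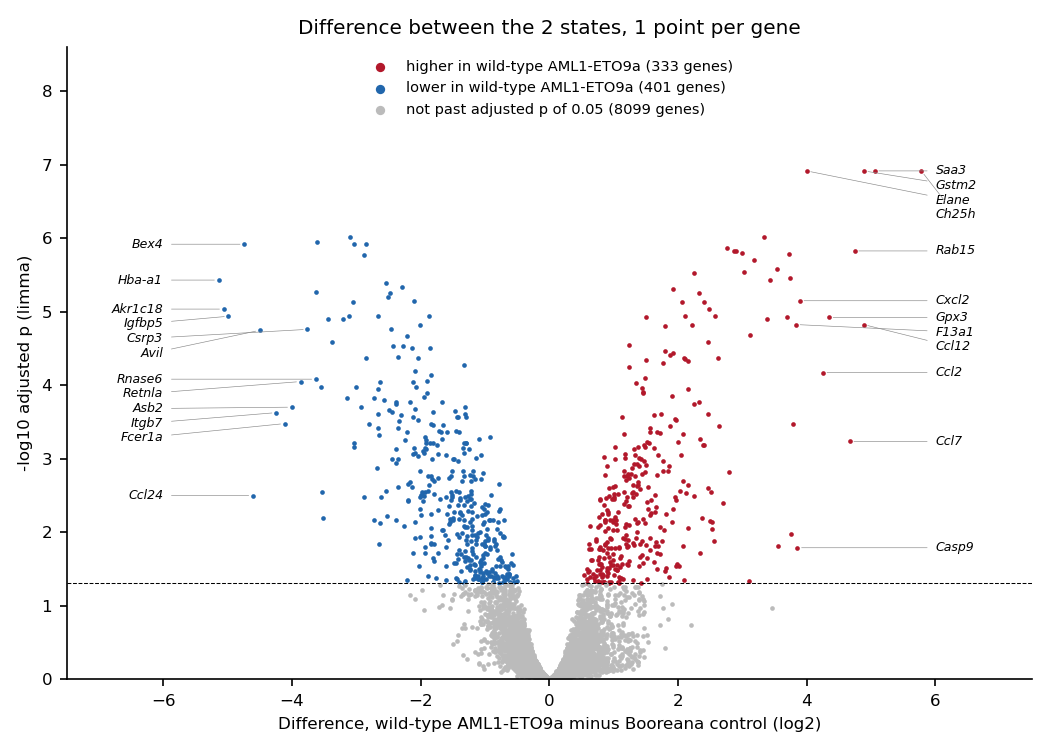
Difference between wild-type AML1-ETO9a and Booreana control cells (x axis, log2) against the strength of the test (y axis, −log10 of the adjusted p) for the 8833 genes, with red points higher and blue points lower in wild-type AML1-ETO9a cells. The named points are the 12 largest differences on each side, from Ch25h at 5.78 to Hba-a1 at -5.14, and the dashed line marks the adjusted p of 0.05.

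The 2 largest differences upward were those of Ch25h and Saa3. Ch25h, the enzyme that turns cholesterol into 25-hydroxycholesterol, stood at 11.34, 11.16, 10.46 and 10.08 in wild-type AML1-ETO9a cells, against 4.57, 5.14, 4.96 and 5.26 in Booreana control cells. No Booreana control array detected it, so it was at least 32.2-fold higher with the oncogene (adjusted p = 1.22e-07), and its level was 9.54 ± 0.73 in Booreana AML1-ETO9a cells and 5.54 ± 0.23 in wild-type control cells (SD, n = 4 each). Saa3, an acute-phase serum amyloid protein made by activated myeloid cells, read 10.66, 10.10, 10.20 and 10.31 in wild-type AML1-ETO9a cells, against 4.88, 6.08, 5.01 and 5.08 in Booreana control cells. It too was detected on all arrays of one group and on 0 of the other, and was at least 23.7-fold higher (adjusted p = 1.22e-07). For Saa3 the wild-type control arrays lay nearer to the oncogene group, and the level was 5.66 ± 0.41 in Booreana AML1-ETO9a cells and 8.51 ± 0.57 in wild-type control cells.

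Chemokines that draw monocytes and neutrophils were more often higher than lower. Of 15 inflammatory chemokines tested, 6 were higher and 1 was lower in wild-type AML1-ETO9a cells. That is 46.7% called, where 8.31% of all genes were. The median difference was 0.67, where the median of all genes was -0.01. Without Booreana control replicate 2 the counts were again 6 and 1. Ccl12, a ligand of the monocyte receptor Ccr2, read 11.31, 11.27, 10.93 and 8.85 in wild-type AML1-ETO9a cells, against 5.15, 6.103, 5.27 and 6.29 in Booreana control cells. The groups did not overlap, although replicate 4 was the lowest of the oncogene arrays, and the difference was 4.88 ± 0.51 (adjusted p = 1.5e-05, and 4.99 without replicate 2); a second probe gave 3.95. Ccl2, the main ligand of the same receptor, was at 10.56, 10.83, 10.50 and 10.58 in wild-type AML1-ETO9a cells, against 5.41, 6.89, 5.35 and 7.81 in Booreana control cells. The 4 oncogene arrays lay close together and above every Booreana array, with a difference of 4.25 ± 0.52 (adjusted p = 6.78e-05, and 4.40 without replicate 2). Ccl7, a related ligand, was at 12.20, 12.03, 11.67 and 11.62 in wild-type AML1-ETO9a cells, against 5.21, 8.52, 5.77 and 9.35 in Booreana control cells. Its Booreana arrays were spread widely, with replicates 1 and 3 near background and replicates 2 and 4 well above it, and the difference of 4.67 ± 0.72 (adjusted p = 0.000582) was 4.01 without Booreana control replicate 1, 5.39 without replicate 4 and 5.07 without replicate 2.

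Among the neutrophil attractants, Cxcl2 was at 8.15, 9.52, 8.83 and 9.67 in wild-type AML1-ETO9a cells, against 5.32, 4.81, 4.91 and 5.57 in Booreana control cells, and Cxcl1 at 8.24, 7.68, 8.14 and 8.20 in wild-type AML1-ETO9a cells, against 5.05, 4.72, 4.91 and 4.84 in Booreana control cells. No Booreana control array detected either gene, so Cxcl2 was at least 9.8-fold and Cxcl1 at least 4.97-fold higher with the oncogene (adjusted p = 7.12e-06 and 2.01e-06). Ccl9, a chemokine that myeloid cells make constitutively, went the other way, at 13.98, 13.56, 13.75 and 14.11 in wild-type AML1-ETO9a cells, against 14.80, 14.94, 14.55 and 15.09 in Booreana control cells. Its groups did not overlap, with a difference of -0.998 ± 0.21 (adjusted p = 0.00575, and -0.98 without replicate 2). The macrophage inflammatory proteins Ccl3 (-0.48 ± 0.56) and Ccl4 (0.67 ± 0.45) did not pass the test.

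Genes of the NF-kB pathway moved in both directions: of 19 tested, 4 were higher, 4 were lower and 4 were at the same level, with 5 higher and 3 lower without Booreana control replicate 2. The called share was 42.1%, where that of all genes was 8.31%. Icam1, an adhesion molecule that NF-kB turns on, was at 10.42, 10.86, 11.42 and 11.05 in wild-type AML1-ETO9a cells, against 8.85, 9.27, 9.11 and 9.66 in Booreana control cells. Socs3, a feedback inhibitor of cytokine signalling, was at 11.23, 11.20, 11.22 and 11.46 in wild-type AML1-ETO9a cells, against 10.05, 10.02, 9.92 and 10.47 in Booreana control cells. Both were higher on every wild-type AML1-ETO9a array than on any Booreana control array. The differences were 1.72 ± 0.26 (adjusted p = 0.000447, and 1.71 without replicate 2) and 1.16 ± 0.18 (adjusted p = 0.000468, and 1.13 without replicate 2). Il6, the interleukin also present in the culture medium as protein, was at 5.64, 5.76, 5.68 and 5.94 in wild-type AML1-ETO9a cells, against 8.49, 9.32, 8.65 and 8.999 in Booreana control cells. Here all 4 Booreana arrays lay far above the oncogene arrays, and 2 of the 4 oncogene arrays did not detect the probe. The difference was -3.11 ± 0.31 (adjusted p = 1.14e-05, and -2.95 without replicate 2). Cd83, a surface protein of activated antigen-presenting cells, was lower as well, at 6.21, 6.37, 6.26 and 5.94 in wild-type AML1-ETO9a cells, against 7.79, 9.005, 8.46 and 8.63 in Booreana control cells. Its groups did not overlap, with a difference of -2.28 ± 0.26 (adjusted p = 2.94e-05, and -2.09 without replicate 2). Of 17 immediate early genes 2 (11.8%) were higher and 0 lower, where 8.31% of all genes were called. They were Ier3, a stress-induced survival gene, by 0.83 ± 0.17 (adjusted p = 0.00569), and Dusp2, a phosphatase that shuts off MAP kinases, by 1.41 ± 0.36 (adjusted p = 0.0217). The call of Dusp2 was lost on leaving out replicate 1 of wild-type AML1-ETO9a or replicate 4 of Booreana control, with an adjusted p of at most 0.0703; another probe of it gave 1.56 and was called.

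Other large differences upward were in enzymes and a trafficking gene. Gstm2, a glutathione transferase that detoxifies reactive compounds, was at 10.35, 10.43, 10.21 and 10.69 in wild-type AML1-ETO9a cells, against 4.83, 6.496, 5.22 and 5.58 in Booreana control cells. Gpx3, a secreted glutathione peroxidase, was at 10.82, 9.90, 9.99 and 9.99 in wild-type AML1-ETO9a cells, against 5.34, 6.45, 5.11 and 6.41 in Booreana control cells. In neither gene did the groups overlap, with differences of 4.89 ± 0.30 (adjusted p = 1.22e-07, and 5.18 without replicate 2) and 4.35 ± 0.45 (adjusted p = 1.2e-05, and 4.53 without replicate 2). Wild-type control cells lay near the oncogene group for both, at 9.38 ± 0.30 and 9.10 ± 0.55, and Booreana AML1-ETO9a cells lay between, at 7.75 ± 0.38 and 7.46 ± 0.96. Rab15, a small GTPase of endosome recycling, was at 11.05, 10.90, 11.42 and 10.91 in wild-type AML1-ETO9a cells, against 5.65, 7.17, 5.42 and 7.07 in Booreana control cells. Its difference was 4.74 ± 0.38 (adjusted p = 1.5e-06, and 4.99 without replicate 2), and its level was 10.22 ± 0.47 in Booreana AML1-ETO9a cells and 7.63 ± 0.46 in wild-type control cells, so that both groups with the oncogene were the higher ones. Booreana control arrays detected Gstm2 on 1, Gpx3 on 2 and Rab15 on 3 of 4 arrays, so the sizes rest partly on background.

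Casp9, the initiator caspase of the mitochondrial death pathway, gave 2 probes that disagreed. The brighter one was at 10.28, 10.49, 10.30 and 10.65 in wild-type AML1-ETO9a cells, against 9.71, 6.12, 5.43 and 5.04 in Booreana control cells. Booreana control replicate 1 lay close to the oncogene arrays, while the other 3 were low, and the difference was 3.86 ± 0.93 (adjusted p = 0.0163, and 3.69 without replicate 2). That call was lost on leaving out Booreana control replicate 3 or 4 (highest adjusted p = 0.0556), and the value was 4.91 without replicate 1. The dimmer probe went the other way, at -1.12 with all arrays (adjusted p = 0.0819) and -1.61 without replicate 2 (adjusted p = 0.000345). For the brighter probe the other groups followed genotype, at 6.26 ± 2.05 in Booreana AML1-ETO9a cells and 10.53 ± 0.20 in wild-type control cells.

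**Figure D2:**
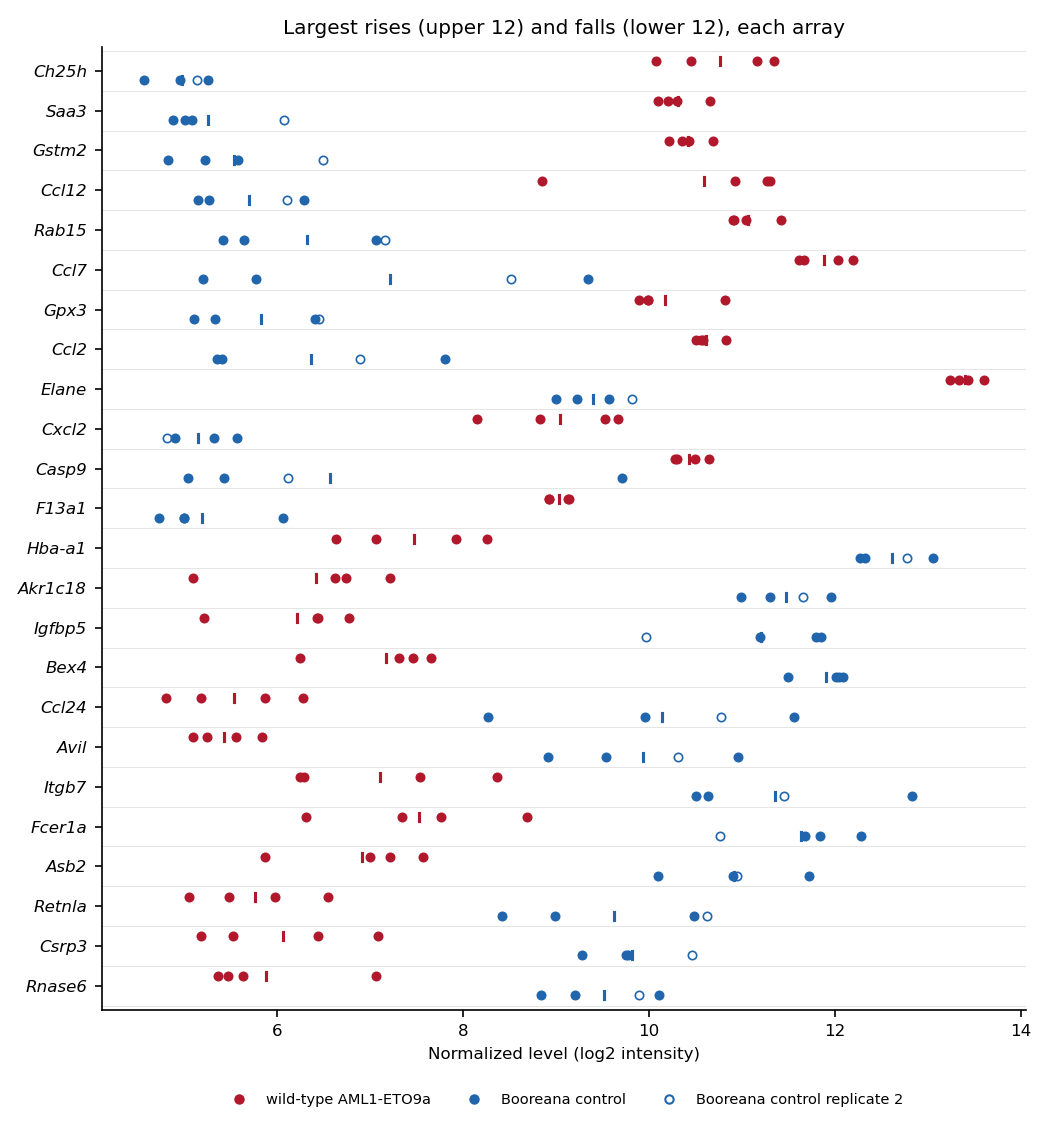
Normalized log2 level of the 12 genes with the largest positive and the 12 with the largest negative differences, 1 point per array, with wild-type AML1-ETO9a above Booreana control for each gene, short bars at the means. In all 24 genes the 2 sets of 4 points do not overlap, which was part of the rule that chose them; the open circle is Booreana control replicate 2.

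Granule proteases of neutrophil precursors were higher in the oncogene-only state than in the mutation-only state. Of 9 primary granule genes tested, 5 (55.6%) were higher and 0 lower, where 8.31% of all genes were called. The median difference was 2.22. Without Booreana control replicate 2 the counts were 6 and 0 and the median 1.62. Elane, neutrophil elastase, was at 13.61, 13.43, 13.34 and 13.24 in wild-type AML1-ETO9a cells, against 9.23, 9.82, 9.57 and 8.9996 in Booreana control cells. Mpo, myeloperoxidase, was at 14.41, 13.41, 13.68 and 13.32 in wild-type AML1-ETO9a cells, against 10.16, 10.70, 10.32 and 8.48 in Booreana control cells. Ctsg, cathepsin G, was at 15.06, 14.44, 14.51 and 15.18 in wild-type AML1-ETO9a cells, against 11.56, 12.08, 11.59 and 11.99 in Booreana control cells. In each of the 3 genes every oncogene array lay above every Booreana array. The differences were 4.00 ± 0.25 (adjusted p = 1.22e-07, and 4.11 without replicate 2), 3.79 ± 0.55 (adjusted p = 0.000342, and 4.03 without replicate 2) and 2.99 ± 0.24 (adjusted p = 1.6e-06, and 3.09 without replicate 2). Other Mpo probes gave 3.81 and 4.28. Prtn3, proteinase 3, was at 14.57, 13.71, 13.60 and 14.35 in wild-type AML1-ETO9a cells, against 11.76, 11.56, 11.90 and 12.14 in Booreana control cells, and differed by 2.22 ± 0.23 (adjusted p = 1.5e-05, and 2.12 without replicate 2). The oncogene group was itself below wild-type control for Elane, Mpo and Prtn3, whose levels were 15.67 ± 0.09, 15.18 ± 0.23 and 15.50 ± 0.21. Booreana AML1-ETO9a cells had the lowest means, at 7.39 ± 0.57, 7.05 ± 1.31 and 11.34 ± 0.29, so for these 3 genes the 2 states compared lay between the other groups.

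Lyz2, lysozyme M of neutrophils and macrophages, turned on 1 array. It was at 14.45, 14.96, 14.92 and 15.32 in wild-type AML1-ETO9a cells, against 13.004, 5.86, 13.11 and 13.82 in Booreana control cells. Booreana control replicate 2 alone was near background, and with it the difference was 3.47 ± 1.20 and not past the threshold (adjusted p = 0.108). Without that array the difference was 1.62 (adjusted p = 0.00527), and another Lyz2 probe gave 1.29 with all arrays (adjusted p = 0.0158). Ctsc, the protease that activates the granule enzymes, did not pass at 0.57 ± 0.19 on its brightest probe. Of 2 others, one gave 0.82 and was called higher (adjusted p = 0.039, and 0.075 without replicate 2), and one gave 0.82 and was not (adjusted p = 0.0741). Serpinb1a, an inhibitor of those enzymes, was at the same level, with a difference of -0.14 ± 0.21. Of 16 genes of later neutrophil granules, 1 was higher, 1 lower and 5 at the same level, with the same counts of calls without replicate 2. The called share was 12.5%, where that of all genes was 8.31%. The higher one was Fcnb, a ficolin of neutrophil granules, at 2.37 ± 0.50 (adjusted p = 0.00644), and the lower one Cebpe, the factor that drives those later granules, at -1.01 ± 0.22 (adjusted p = 0.00723). A second Cebpe probe, detected on all 8 arrays, gave -0.23 and was not called (adjusted p = 0.928); without Booreana control replicate 2 it gave -1.22 and was (adjusted p = 0.0139).

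The 250 bases before the transcript start of 3 granule enzyme genes and of Ch25h, the gene with the largest positive difference, are shown because the states differ in c-Myb and in a RUNX1 fusion, whose binding motifs can be looked for there. They are from RefSeq's mouse table (GRCm38.p6), 5′ to 3′ on the gene's strand, and capitals mark matches of the MYB motif AACNG on either strand.
Elane, chr10:79886062-79886311, plus strand: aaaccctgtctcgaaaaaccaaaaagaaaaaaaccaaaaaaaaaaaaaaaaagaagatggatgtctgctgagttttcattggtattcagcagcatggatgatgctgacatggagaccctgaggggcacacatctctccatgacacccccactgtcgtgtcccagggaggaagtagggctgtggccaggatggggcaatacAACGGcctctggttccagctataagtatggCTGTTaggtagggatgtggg
Prtn3, chr10:79879417-79879666, plus strand: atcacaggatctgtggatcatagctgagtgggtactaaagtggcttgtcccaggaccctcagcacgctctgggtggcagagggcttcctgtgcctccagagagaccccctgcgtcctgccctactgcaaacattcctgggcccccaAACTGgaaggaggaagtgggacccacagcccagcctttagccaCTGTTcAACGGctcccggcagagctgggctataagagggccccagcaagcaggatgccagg
Mpo, chr11:87793534-87793783, plus strand: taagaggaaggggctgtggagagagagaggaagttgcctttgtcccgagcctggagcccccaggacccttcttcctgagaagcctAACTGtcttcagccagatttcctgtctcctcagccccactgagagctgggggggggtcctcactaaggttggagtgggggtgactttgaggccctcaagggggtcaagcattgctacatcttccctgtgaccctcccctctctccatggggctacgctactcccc
Ch25h, chr19:34475149-34475398, minus strand: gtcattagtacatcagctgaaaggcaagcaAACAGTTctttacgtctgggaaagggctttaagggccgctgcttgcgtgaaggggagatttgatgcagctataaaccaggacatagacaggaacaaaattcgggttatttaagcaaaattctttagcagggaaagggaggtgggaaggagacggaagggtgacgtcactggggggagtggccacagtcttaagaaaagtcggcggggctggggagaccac
Elane held 2 matches, 50 and 20 bases before the start, and Prtn3, its neighbour on chromosome 10, held 3, at 104, 61 and 55 bases. Mpo held 1, at 165 bases, and Ch25h 2, at 220 and 218 bases, which overlap on opposite strands. None of the 4 held the RUNX motif TGNGGT. So short a motif is common: of 27025 mouse promoters of this length, 74.1% held AACNG and 39.9% held TGNGGT on either strand. Among all genes tested on the arrays the shares were 73.2% and 37.1% (7251 of 8833 matched by symbol). Among genes higher in wild-type AML1-ETO9a cells they were 73.2% and 37.7% (265 of 333), among lower genes 73.2% and 46.1% (317 of 401), and among genes at the same level 73.4% and 35.9% (4612 of 5589). Whether these shares differ was not tested. A match is only a run of letters, and no binding was measured.

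Monocyte and macrophage markers also leaned upward. Of 8 tested, 4 (50%) were higher and 0 lower, where 8.31% of all genes were called. The median was 1.40, and without Booreana control replicate 2 the counts were 3 and 0. Ccr2, Cx3cr1 and Msr1 were not tested. F13a1, the clotting factor XIII subunit of monocytes, was at 8.93, 8.93, 9.14 and 9.13 in wild-type AML1-ETO9a cells, against 4.73, 5.002, 4.998 and 6.06 in Booreana control cells. Cd14, the coreceptor for bacterial lipopolysaccharide, was at 11.31, 11.24, 11.90 and 11.21 in wild-type AML1-ETO9a cells, against 9.74, 9.53, 9.12 and 9.66 in Booreana control cells. The groups did not overlap in either, and the differences were 3.83 ± 0.40 (adjusted p = 1.5e-05, and 3.76 without replicate 2) and 1.90 ± 0.25 (adjusted p = 0.000141, and 1.89 without replicate 2); 1 of 4 Booreana arrays detected F13a1. Mrc1, the mannose receptor, was at 11.07, 11.34, 10.81 and 10.25 in wild-type AML1-ETO9a cells, against 6.82, 8.09, 8.31 and 10.03 in Booreana control cells, with a difference of 2.56 ± 0.60 (adjusted p = 0.0132, and 2.45 without replicate 2). Booreana control replicate 4 stood nearest to the oncogene arrays in Mrc1, and in Arg1, which splits arginine, it overlapped them. Arg1 was at 11.65, 12.92, 12.61 and 11.24 in wild-type AML1-ETO9a cells, against 6.58, 8.92, 8.08 and 12.43 in Booreana control cells. Its difference of 3.10 ± 0.89 (adjusted p = 0.0457) was past the threshold only narrowly: it was 4.24 without Booreana control replicate 4 and 2.30 without replicate 1, and the call was lost without any array but Booreana control replicate 4 (highest adjusted p = 0.136). Summed over the 8 tested markers, the normalized intensity was 21899 to 36379 in wild-type AML1-ETO9a cells and 8803 to 21505 in Booreana control cells. In bulk samples, fewer cells of a type and less RNA per cell cannot be told apart, here and in the lists that follow.

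On the lists for red cells, platelets, mast cells and basophils, eosinophils and antigen-presenting cells, more genes were lower than higher in wild-type AML1-ETO9a cells. This is against Booreana control cells, so genotype and virus differ together. Of 8 erythroid genes tested, 5 (62.5%) were lower and 0 higher, where 8.31% of all genes were called. The median was -0.96, and without Booreana control replicate 2 the counts were 4 and 0. Alas2, Slc4a1 and Ermap were not tested. Hba-a1, an alpha globin gene with a near-identical copy that the probe may read too, was at 7.93, 7.07, 8.26 and 6.64 in wild-type AML1-ETO9a cells, against 12.33, 12.78, 12.28 and 13.06 in Booreana control cells. A wide gap separated the groups, and the difference was -5.14 ± 0.46 (adjusted p = 3.73e-06, and -5.03 without replicate 2). The level followed genotype, at 12.73 ± 0.67 in Booreana AML1-ETO9a cells and 7.57 ± 0.92 in wild-type control cells. Gata1, the main transcription factor of red cells and platelets, was at 5.96, 4.87, 5.79 and 5.16 in wild-type AML1-ETO9a cells, against 6.99, 7.66, 6.76 and 8.40 in Booreana control cells. The groups did not overlap and the difference was -2.01 ± 0.39 (adjusted p = 0.00335, and -1.95 without replicate 2), with 2 of 4 oncogene arrays detecting it. Klf1, a globin gene activator, differed by -1.79 ± 0.43 (adjusted p = 0.0146), a call that was lost on leaving out wild-type AML1-ETO9a replicate 2 (adjusted p = 0.0591). Nfe2, which works in both lineages, differed by -0.80 ± 0.17 (adjusted p = 0.00721). Tal1, a partner of Gata1, was at the same level (-0.45 ± 0.23). The summed intensity of the 8 erythroid markers was 10790 to 13786 in wild-type AML1-ETO9a cells and 21161 to 28466 in Booreana control cells, and its part in the other differences was not tested.

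Of 12 megakaryocyte and platelet genes, 4 were lower and 1 higher, with or without Booreana control replicate 2, with a median of -0.66. The called share was 41.7%, where that of all genes was 8.31%. The summed intensity of the 12 genes was 13464 to 18558 in wild-type AML1-ETO9a cells and 23077 to 39068 in Booreana control cells. It was 5141 to 10391 in wild-type control cells and 31270 to 53288 in Booreana AML1-ETO9a cells. On Booreana control replicates 2 and 4 most of the sum came from F2r alone. Itga2b, the CD41 integrin chain of platelets and of early progenitors, was at 8.41, 6.46, 7.57 and 6.91 in wild-type AML1-ETO9a cells, against 10.70, 11.11, 10.32 and 11.41 in Booreana control cells. F2r, the thrombin receptor, was at 12.94, 12.33, 12.79 and 12.92 in wild-type AML1-ETO9a cells, against 14.25, 14.05, 14.04 and 14.88 in Booreana control cells. All Booreana arrays were above all oncogene arrays in both, with differences of -3.54 ± 0.45 (adjusted p = 0.000105, and -3.43 without replicate 2) and -1.56 ± 0.28 (adjusted p = 0.00184, and -1.65 without replicate 2). Gp5 and Gp9, chains of the receptor for von Willebrand factor, had differences of -1.48 ± 0.30 and -1.84 ± 0.44 (adjusted p = 0.00535 and 0.0147); 1 of 4 oncogene arrays detected Gp9. The higher gene was Ppbp, a platelet chemokine that is on the chemokine list too, at 11.35, 11.73, 11.01 and 10.55 in wild-type AML1-ETO9a cells, against 7.74, 5.07, 7.73 and 9.88 in Booreana control cells. Its groups did not overlap, although the Booreana arrays were spread widely, and the difference was 3.55 ± 0.85 (adjusted p = 0.0153, and 2.68 without replicate 2); it was 4.31 without Booreana control replicate 4, and the call was lost without replicate 2 of the oncogene group (adjusted p = 0.0515). A second Ppbp probe gave 2.81 and was called. Pf4 (another platelet chemokine, 0.37 ± 0.42), Treml1 (a platelet receptor, 1.13) and Vwf (von Willebrand factor, 0.50) had positive values and did not pass.

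Mast cell and basophil genes were divided. Of 14 tested, 5 were lower and 2 higher (5 and 1 without Booreana control replicate 2), while the median was positive, at 0.25. The called share was 50%, where that of all genes was 8.31%. Fcer1a, the IgE-binding chain of the IgE receptor, was at 7.77, 6.32, 7.34 and 8.69 in wild-type AML1-ETO9a cells, against 11.68, 10.76, 11.84 and 12.28 in Booreana control cells. Ms4a2, the beta chain of that receptor, was at 7.80, 6.67, 6.95 and 6.81 in wild-type AML1-ETO9a cells, against 9.45, 10.004, 9.59 and 8.90 in Booreana control cells. Il4, the interleukin that basophils secrete, was at 8.90, 7.72, 8.10 and 8.64 in wild-type AML1-ETO9a cells, against 10.10, 11.09, 10.41 and 11.55 in Booreana control cells. Each of the 3 was higher on every Booreana array than on any oncogene array, with differences of -4.11 ± 0.60 (adjusted p = 0.000334, and -4.36 without replicate 2), -2.43 ± 0.27 (adjusted p = 2.92e-05, and -2.23 without replicate 2) and -2.45 ± 0.41 (adjusted p = 0.00101, and -2.32 without replicate 2). The 2 higher genes were detected on no Booreana control array. Slc45a3, a solute carrier, was at 9.01, 7.26, 7.96 and 7.86 in wild-type AML1-ETO9a cells, against 5.36, 5.16, 5.32 and 5.06 in Booreana control cells, and was at least 4.83-fold higher (adjusted p = 0.00153). Tpsab1, a mast cell tryptase, was at 8.08, 5.58, 6.71 and 8.49 in wild-type AML1-ETO9a cells, against 5.25, 5.23, 5.08 and 4.95 in Booreana control cells, and was at least 2.76-fold higher (adjusted p = 0.0442). Its call was lost without any array but wild-type AML1-ETO9a replicate 2 (highest adjusted p = 0.143). Hdc, the histamine-forming enzyme, was at the same level (0.07 ± 0.23), and Cpa3, a mast cell protease, was at 1.74 ± 0.51, just outside the threshold (adjusted p = 0.0505). The summed intensity of the 14 genes overlapped between the groups, at 31186 to 49529 in wild-type AML1-ETO9a cells and 40145 to 78363 in Booreana control cells.

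Of 6 eosinophil genes tested, 3 (50%) were lower and 0 higher with or without Booreana control replicate 2, where 8.31% of all genes were called. The median was -1.87. Ccr3 and Siglecf were not tested. Prg2, the eosinophil major basic protein, was at 13.06, 12.999, 13.02 and 11.87 in wild-type AML1-ETO9a cells, against 15.20, 14.69, 15.07 and 15.35 in Booreana control cells. Alox15, a lipid-oxidizing enzyme, was at 4.84, 5.11, 4.72 and 4.84 in wild-type AML1-ETO9a cells, against 6.98, 6.90, 6.15 and 7.94 in Booreana control cells. The groups did not overlap, Prg2 differed by -2.34 ± 0.34 (adjusted p = 0.000311, and -2.49 without replicate 2), and Alox15, which no oncogene array detected, was at least 2.49-fold lower (adjusted p = 0.000269). Ear6, an eosinophil ribonuclease, differed by -2.03 ± 0.54 (adjusted p = 0.0288), a call lost on leaving out replicate 2 or 4 of wild-type AML1-ETO9a, or replicate 3 or 4 of Booreana control (highest adjusted p = 0.0997). Epx, the eosinophil peroxidase, did not pass (-0.54 ± 0.53). The 6 markers summed to 4184 to 9724 in wild-type AML1-ETO9a cells and 29887 to 45586 in Booreana control cells, ranges that did not overlap. Prg2 alone made up most of that sum on every array of both groups, so the sum does not speak for all 6 markers.

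Genes of antigen presentation through MHC class II were lower in wild-type AML1-ETO9a than in Booreana control cells. Of 7 dendritic cell and MHC class II genes tested, 5 (71.4%) were lower and 0 higher, where 8.31% of all genes were called. The median was -1.82. The counts held without Booreana control replicate 2. H2-Eb1 and H2-Ab1, chains of the class II molecules, were at 10.25, 10.18, 10.51 and 9.31 and at 11.60, 11.27, 11.32 and 10.66 in wild-type AML1-ETO9a cells. In Booreana control cells they were at 11.57, 11.89, 11.71 and 12.89 and at 12.38, 13.40, 12.69 and 13.66. Neither overlapped, and the differences were -1.95 ± 0.32 (adjusted p = 0.00084, and -1.98 without replicate 2) and -1.82 ± 0.33 (adjusted p = 0.00192, and -1.69 without replicate 2). Of 3 other H2-Ab1 probes, 2 were called lower, and 1 gave -0.82 and was called only without replicate 2, at -2.32 (adjusted p = 0.788 with all arrays and 0.000352 without). Ciita, the master activator of these genes, was at 4.98, 6.41, 6.32 and 5.78 in wild-type AML1-ETO9a cells, against 7.80, 7.40, 8.19 and 8.89 in Booreana control cells, with a difference of -2.20 ± 0.40 (adjusted p = 0.00222, and -2.42 without replicate 2). Batf3, a factor of one dendritic cell branch, was at 6.83, 7.12, 7.31 and 7.65 in wild-type AML1-ETO9a cells, against 8.79, 10.12, 8.99 and 9.78 in Booreana control cells, with a difference of -2.19 ± 0.43 (adjusted p = 0.00377, and -1.93 without replicate 2). Both factors kept the groups apart. Cd74, the invariant chain, did not pass (-0.89 ± 0.28, adjusted p = 0.0765), and H2-DMa, which loads peptides, was at the same level (-0.19 ± 0.23). Defining dendritic cell markers Flt3, Itgax, Siglech, Xcr1 and Ccr9 were not tested, since under 4 arrays detected them. The 7 tested genes summed to 14687 to 19218 in wild-type AML1-ETO9a cells and 26166 to 52285 in Booreana control cells. The sums were 10881 to 13587 in wild-type control cells and 22172 to 49223 in Booreana AML1-ETO9a cells. They were thus higher in both Booreana groups. The part of such cells in the result was not tested.

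**Figure D3:**
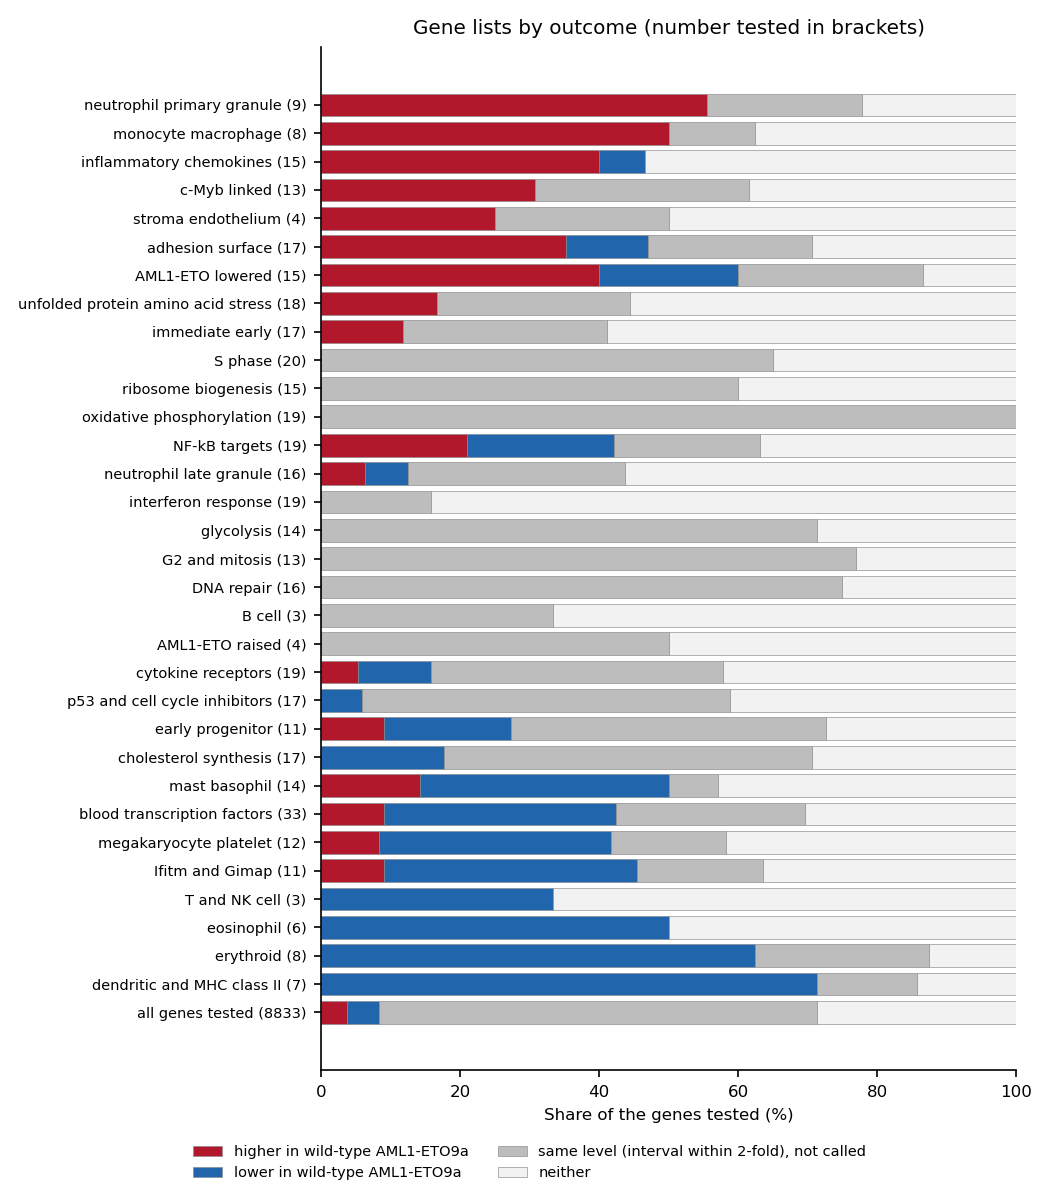
Share of the tested members of each of 32 gene lists (x axis, percent) that were higher (red) or lower (blue) in wild-type AML1-ETO9a than in Booreana control cells, at the same level and not called (dark grey) or neither (light grey), with all genes tested in the bottom row. Antigen presentation, eosinophil and erythroid lists hold 5, 3 and 5 lower and 0 higher genes, primary granules 5 higher and 0 lower, and oxidative phosphorylation 19 of 19 at the same level.

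Several of the largest differences downward belong to no list. Akr1c18, an enzyme that inactivates progesterone, was at 7.22, 6.63, 6.74 and 5.09 in wild-type AML1-ETO9a cells, against 10.99, 11.66, 11.31 and 11.96 in Booreana control cells. Igfbp5, which binds insulin-like growth factors, was at 5.22, 6.78, 6.43 and 6.44 in wild-type AML1-ETO9a cells, against 11.19, 9.97, 11.85 and 11.80 in Booreana control cells. Bex4, of a small family of X-linked adaptor proteins, was at 7.66, 6.24, 7.32 and 7.47 in wild-type AML1-ETO9a cells, against 11.50, 12.05, 12.09 and 12.01 in Booreana control cells. The groups were apart in all 3, with differences of -5.06 ± 0.50 (adjusted p = 9.25e-06, and -4.96 without replicate 2), -4.99 ± 0.51 (adjusted p = 1.16e-05, and -5.35 without replicate 2) and -4.74 ± 0.37 (adjusted p = 1.21e-06, and -4.65 without replicate 2). Igfbp5 and Bex4 followed genotype across the series, with 11.69 ± 1.06 and 12.72 ± 0.37 in Booreana AML1-ETO9a cells and 6.61 ± 0.35 and 6.53 ± 0.79 in wild-type control cells. Akr1c18 was intermediate in both other groups, at 9.64 ± 0.46 in Booreana AML1-ETO9a cells and 9.08 ± 1.10 in wild-type control cells.

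Avil, an actin-bundling protein, was at 5.83, 5.56, 5.10 and 5.24 in wild-type AML1-ETO9a cells, against 9.54, 10.32, 8.91 and 10.96 in Booreana control cells. Itgb7, an integrin chain that guides cells to the gut, was at 8.36, 6.25, 7.54 and 6.29 in wild-type AML1-ETO9a cells, against 10.64, 11.45, 10.50 and 12.83 in Booreana control cells. Asb2, a subunit of a ubiquitin ligase, was at 5.87, 7.22, 6.996 and 7.57 in wild-type AML1-ETO9a cells, against 10.10, 10.95, 10.90 and 11.72 in Booreana control cells. No oncogene array reached the lowest Booreana array of any of them, and the differences were -4.50 ± 0.48 (adjusted p = 1.8e-05, and -4.35 without replicate 2), -4.25 ± 0.59 (adjusted p = 0.000237, and -4.17 without replicate 2) and -4.00 ± 0.55 (adjusted p = 0.0002, and -3.95 without replicate 2). Csrp3, a LIM protein best known from muscle, was at 7.09, 6.44, 5.18 and 5.53 in wild-type AML1-ETO9a cells, against 9.75, 10.47, 9.28 and 9.77 in Booreana control cells. Rnase6, a ribonuclease of myeloid cells, was at 7.06, 5.64, 5.47 and 5.37 in wild-type AML1-ETO9a cells, against 8.85, 9.89, 9.21 and 10.11 in Booreana control cells. These also stayed apart, with differences of -3.76 ± 0.40 (adjusted p = 1.75e-05, and -3.52 without replicate 2) and -3.63 ± 0.45 (adjusted p = 8.31e-05, and -3.48 without replicate 2); 1 of 4 oncogene arrays detected Avil and Rnase6 each, and 2 detected Csrp3.

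A secreted pair was lower as well. Ccl24, a chemokine for eosinophils, was at 5.18, 6.28, 5.87 and 4.81 in wild-type AML1-ETO9a cells, against 8.27, 10.78, 9.96 and 11.56 in Booreana control cells. Retnla, a secreted protein that IL-4 induces, was at 5.98, 5.49, 6.55 and 5.06 in wild-type AML1-ETO9a cells, against 8.42, 10.62, 8.99 and 10.49 in Booreana control cells. In both, 2 of 4 oncogene arrays detected the probe and all 4 Booreana arrays lay higher. The differences were -4.61 ± 0.88 (adjusted p = 0.00319, and -4.37 without replicate 2) and -3.86 ± 0.49 (adjusted p = 8.95e-05, and -3.52 without replicate 2), and Ccl24 was at -5.24 without Booreana control replicate 1. Retnla was at 11.67 ± 0.78 in Booreana AML1-ETO9a cells and 5.40 ± 0.27 in wild-type control cells.

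Transcription factors of blood formation were more often lower than higher. Of 33 tested, 11 were lower, 3 higher and 9 at the same level, with a median of -0.45. The called share was 42.4%, where that of all genes was 8.31%. Without Booreana control replicate 2 the counts were again 11 and 3. Of the lower ones, Gata1, Nfe2, Gata2, Meis1 and Cebpe were counted on lists above too and are not separate evidence. Gfi1, a repressor that neutrophil precursors need, was at 10.33, 10.37, 9.69 and 9.88 in wild-type AML1-ETO9a cells, against 6.68, 7.67, 7.31 and 7.14 in Booreana control cells. Gata2, a factor of stem cells, mast cells and basophils, was at 11.64, 10.25, 10.54 and 10.69 in wild-type AML1-ETO9a cells, against 13.29, 14.07, 12.96 and 13.45 in Booreana control cells. Zfpm1, the partner protein of Gata1, was at 11.20, 10.99, 11.53 and 11.36 in wild-type AML1-ETO9a cells, against 13.42, 12.99, 13.05 and 13.05 in Booreana control cells. Each separated the groups on all arrays: Gfi1 was higher by 2.87 ± 0.23 (adjusted p = 1.5e-06, and 2.99 without replicate 2), while Gata2 differed by -2.66 ± 0.34 (adjusted p = 0.000114, and -2.44 without replicate 2) and Zfpm1 by -1.86 ± 0.21 (adjusted p = 3.15e-05, and -1.90 without replicate 2). Meis1, a homeobox factor of stem cells and leukemia, was at 9.75, 8.96, 9.03 and 8.79 in wild-type AML1-ETO9a cells, against 10.62, 11.48, 10.64 and 11.01 in Booreana control cells, with a difference of -1.81 ± 0.26 (adjusted p = 0.000354, and -1.61 without replicate 2). Hoxa7 (-2.08 ± 0.34), Gfi1b (-1.69 ± 0.33), Ikzf1 (-0.70 ± 0.15) and Ets1 (-1.84 ± 0.41, and -2.31 without replicate 2) were lower as well. Id3, an inhibitor of helix-loop-helix factors, was at 7.92, 6.96, 8.13 and 7.51 in wild-type AML1-ETO9a cells, against 4.62, 6.32, 5.25 and 4.73 in Booreana control cells, with no overlap and a difference of 2.40 ± 0.38 (adjusted p = 0.000645, and 2.78 without replicate 2); 1 of 4 Booreana arrays detected it. Spi1, the PU.1 factor of myeloid cells, and Id1, a relative of Id3, were at the same level, with differences of 0.05 ± 0.39 and 0.29 ± 0.17.

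Cebpa, the regulator that starts granulocyte development, depended on Booreana control replicate 2. It was at 5.05, 5.67, 5.55 and 5.25 in wild-type AML1-ETO9a cells, against 7.83, 5.06, 7.77 and 7.29 in Booreana control cells. On that array it was as low as in wild-type AML1-ETO9a cells, all near background, and on the other 3 it was clearly higher. The difference was -1.61 ± 0.46 with all arrays (adjusted p = 0.045). It was -0.61 without background correction and -0.38 on the narrower scale of the authors' processed values. The call was lost in both, and also with no filter on detection, with only the 8 arrays of both groups, and with a term for replicate number. Without Booreana control replicate 2 the difference was -2.26 (adjusted p = 2.64e-05), and without any other single array the call was lost (highest adjusted p = 0.138). Myc, which drives growth and division, turned on the same array: it was at 7.60, 7.98, 7.31 and 8.36 in wild-type AML1-ETO9a cells, against 8.80, 4.88, 8.56 and 8.70 in Booreana control cells, with a difference of 0.08 ± 0.63 with all arrays and -0.86 without replicate 2 (adjusted p = 0.0265). Bcl2, which blocks apoptosis, was at 6.65, 6.75, 6.66 and 6.94 in wild-type AML1-ETO9a cells, against 8.34, 6.43, 8.01 and 8.06 in Booreana control cells, and its difference of -0.96 ± 0.37 (adjusted p = 0.169) became -1.37 (adjusted p = 0.0054). A second Bcl2 probe was called with all arrays, at -1.23 (adjusted p = 0.0155), and 3 others were not.

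Myb, Ep300, Runx1 and Runx1t1, the genes at the centre of the study, did not pass the test. The Myb probe was dim, detected on 1 oncogene array and 3 Booreana arrays, at 5.60, 5.12, 5.94 and 5.53 in wild-type AML1-ETO9a cells, against 6.11, 7.38, 6.68 and 5.33 in Booreana control cells. The groups overlapped, and the difference was -0.83 ± 0.34 (adjusted p = 0.199, and -0.50 without replicate 2); it was called without Booreana control replicate 4 (adjusted p = 0.0216), and another probe gave -0.15. A level does not show whether the mutation is present. Ep300, which encodes p300, was at 9.31, 10.51, 9.88 and 10.38 in wild-type AML1-ETO9a cells, against 10.16, 8.18, 10.12 and 10.61 in Booreana control cells, with a difference of 0.25 ± 0.44 (adjusted p = 0.87, and -0.27 without replicate 2). Runx1 was at the same level, at 9.08, 10.02, 9.23 and 9.48 in wild-type AML1-ETO9a cells, against 9.58, 8.92, 9.21 and 9.13 in Booreana control cells and a difference of 0.24 ± 0.23 (adjusted p = 0.715, and 0.14 without replicate 2). Runx1t1 was not above background on any array of either group. Whether either mouse probe reads the viral transcript is not known here. Ahi1 and Hbs1l, the genes next to Myb on chromosome 10, were chosen after their values were seen. Ahi1, a ciliary gene, was at 8.09, 7.34, 7.84 and 7.75 in wild-type AML1-ETO9a cells, against 10.67, 11.17, 10.34 and 11.21 in Booreana control cells. Every Booreana array was above every oncogene array, with a difference of -3.09 ± 0.23 (adjusted p = 9.6e-07, and -2.94 without replicate 2), and the level was 9.70 ± 0.29 in Booreana AML1-ETO9a cells and 7.76 ± 0.17 in wild-type control cells. Hbs1l, a ribosome rescue gene, was at the same level (-0.01 ± 0.17).

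Of 13 genes linked to c-Myb in earlier work, 4 were higher, 0 lower and 4 at the same level (3, 2 and 4 without Booreana control replicate 2). That is 30.8% called, where 8.31% of all genes were. The higher ones were Elane, Mpo, Gfi1 and Ets2, a signal-responsive factor at 0.74 ± 0.20 (adjusted p = 0.033, a call lost without any array but wild-type AML1-ETO9a replicate 1, with an adjusted p of up to 0.114); the lower ones without replicate 2 were Myc and Bcl2. Of 15 genes reported as lowered by AML1-ETO, 6 were higher and 3 lower here (60% called, and 7 and 3 without replicate 2). This was against the Booreana cells rather than against a wild-type control. Among the higher ones was Csf3r, the receptor for the granulocyte growth factor G-CSF, at 9.95, 9.66, 10.08 and 8.95 in wild-type AML1-ETO9a cells, against 7.60, 7.62, 9.07 and 7.78 in Booreana control cells. Booreana control replicate 3 overlapped the oncogene arrays, and the difference was 1.64 ± 0.34 (adjusted p = 0.00536, and 1.49 without replicate 2). Of 2 other probes, one gave 2.19 and was called, and a dimmer one, detected on no Booreana control array, gave 0.47 and was not (adjusted p = 0.203). Lat2, an adaptor of mast cell and lymphocyte signalling, was lower, with a difference of -2.07 ± 0.27 (adjusted p = 0.000107). Of 4 genes reported as raised by AML1-ETO, limma called 0 with all arrays (2 at an unadjusted p under 0.05) and 1, Bcl2, lower without replicate 2. These lists share members with the granule list and are not separate evidence.

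Surface and adhesion genes were higher more often than lower, 6 against 2 of 17 tested (6 and 3 without Booreana control replicate 2). The called share was 47.1%, where that of all genes was 8.31%. Pdpn, podoplanin, was at 11.01, 11.04, 11.48 and 11.21 in wild-type AML1-ETO9a cells, against 7.18, 8.67, 6.76 and 7.35 in Booreana control cells. Flrt3, a cell guidance protein, was at 8.77, 8.95, 9.66 and 8.78 in wild-type AML1-ETO9a cells, against 5.72, 6.80, 5.46 and 7.65 in Booreana control cells. Vcam1, the ligand of integrin alpha 4, was at 7.14, 6.96, 7.23 and 8.17 in wild-type AML1-ETO9a cells, against 5.11, 4.86, 5.74 and 5.15 in Booreana control cells. The groups did not overlap in any of them, with differences of 3.70 ± 0.38 (adjusted p = 1.17e-05, and 4.04 without replicate 2), 2.63 ± 0.39 (adjusted p = 0.000359, and 2.75 without replicate 2) and 2.16 ± 0.28 (adjusted p = 0.000112, and 2.05 without replicate 2). The 3 genes had different patterns elsewhere: Pdpn was at 9.53 ± 0.67 in Booreana AML1-ETO9a cells and 7.61 ± 0.39 in wild-type control cells, Flrt3 at 9.31 ± 0.32 in Booreana AML1-ETO9a cells and 5.35 ± 0.28 in wild-type control cells, and Vcam1 at 5.40 ± 0.18 in Booreana AML1-ETO9a cells and 10.13 ± 0.43 in wild-type control cells. Itgb7, described above, is on this list too and had its largest difference, at -4.25 (adjusted p = 0.000237). Nrp1, a receptor of semaphorins and VEGF, was also lower, with a difference of -1.66 ± 0.24 (adjusted p = 0.000354). Among 19 cytokine receptors 1 was higher, 2 lower and 8 at the same level, so 15.8% were called, where 8.31% of all genes were. Il18r1, a chain of the IL-18 receptor, was at -2.04 ± 0.33 (adjusted p = 0.000918). Epor, the erythropoietin receptor, was at -1.11 ± 0.31 (adjusted p = 0.0392), and its call was lost on leaving out any array but Booreana control replicate 3 and wild-type AML1-ETO9a replicate 4 (highest adjusted p = 0.137). Igf1r, the receptor of insulin-like growth factor 1, was called only without Booreana control replicate 2, at -1.75 (adjusted p = 0.000249) against -0.66 with all arrays.

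The interferon-induced transmembrane family and the Gimap GTPases split. Of 11 tested, 4 Ifitm genes were lower and 1 Gimap gene was higher (3 and 1 without Booreana control replicate 2). The called share was 45.5%, where that of all genes was 8.31%. Ifitm1, a membrane protein that restricts viral entry, was at 10.42, 10.47, 10.28 and 9.59 in wild-type AML1-ETO9a cells, against 12.98, 12.97, 13.31 and 13.01 in Booreana control cells. Ifitm2, its close relative, was at 14.01, 14.04, 13.98 and 13.76 in wild-type AML1-ETO9a cells, against 15.43, 14.71, 15.32 and 15.50 in Booreana control cells. Both were lower without overlap, with differences of -2.88 ± 0.24 (adjusted p = 1.7e-06, and -2.90 without replicate 2) and -1.29 ± 0.18 (adjusted p = 0.00027, and -1.50 without replicate 2). Gimap9, a GTPase of lymphoid and progenitor cells, was at 9.06, 9.13, 8.95 and 9.04 in wild-type AML1-ETO9a cells, against 7.62, 7.47, 7.94 and 7.32 in Booreana control cells, with a difference of 1.46 ± 0.19 (adjusted p = 0.000126, and 1.40 without replicate 2). By contrast, limma called 0 of 19 genes of the interferon response proper (0 at an unadjusted p under 0.05), with a median of -0.44 and 3 at the same level, so the other 16 were settled neither way.

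Of 18 genes of the unfolded protein and amino acid stress responses, 3 (16.7%) were higher, where 8.31% of all genes were called: Slc7a11, the cystine transporter, by 1.40 ± 0.26 (adjusted p = 0.0026), Xbp1, a factor of the unfolded protein response, by 0.78 ± 0.15 (adjusted p = 0.0036), and Dnajb9, a chaperone partner in the endoplasmic reticulum, by 0.76 ± 0.17 (adjusted p = 0.0084). Of 17 genes of cholesterol synthesis, 3 (17.6%) were lower and 9 at the same level. Lss, lanosterol synthase, was at -1.29 ± 0.25 (adjusted p = 0.00375). The other calls were lost on leaving out single arrays. That of Hmgcs1 (-0.75 ± 0.19) was lost without replicate 4 of Booreana control or without replicate 1 or 2 of the oncogene group, with an adjusted p of up to 0.0751. That of Pmvk (-0.96 ± 0.27) was lost without replicates 2, 3 or 4 of the oncogene group or replicates 2 or 3 of Booreana control, with an adjusted p of up to 0.111. In the list of p53 targets and cell cycle inhibitors 1 of 17 (5.88%) was called, Bbc3, a death promoter (-1.09 ± 0.29), whose call was lost without Booreana control replicate 2 or 4 or without replicate 1, 2 or 3 of the oncogene group (highest adjusted p = 0.107), and 9 were at the same level. The 2 other Bbc3 probes gave -0.17 and -0.24 and were not called (adjusted p = 0.873 and 0.853).

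A missed threshold does not show equal levels, so a gene was called at the same level only where the 95% interval of its difference lay within 2-fold either way. That held for 5589 of 8833 genes (63.3%), and for 4387 of the 6259 (70.1%) that all 8 arrays detected. Without Booreana control replicate 2 it held for 5872 (66.5%) and 4550. The median standard error of a gene's difference was 0.26. There were 20 genes both called and within the band, and 2530 (28.6%) were neither, so their levels are unresolved with 4 arrays a group. All 19 genes of oxidative phosphorylation were at the same level, with a median difference of -0.13 (18 without replicate 2). So were 10 of 14 glycolysis genes, 13 of 20 S phase genes, 10 of 13 genes of G2 and mitosis, 12 of 16 DNA repair genes and 9 of 15 ribosome biogenesis genes. Several of these shares lay near the 63.3% of all genes or the 70.1% of genes detected on all 8 arrays. They are therefore not read as a result about those lists. None of these lists held a gene called by limma in either fit; at an unadjusted p under 0.05 the 6 lists, in this order, held 0, 0, 2, 1, 3 and 0.

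Cdkn1a, the p21 cell cycle inhibitor, was among the genes at the same level, at 12.74, 12.65, 12.44 and 12.82 in wild-type AML1-ETO9a cells, against 12.68, 12.65, 12.44 and 12.90 in Booreana control cells. The arrays of the 2 groups interleaved, and the interval of the difference ran from -0.41 to 0.40. Dimmer Cdkn1a probes gave 0.02 ± 0.40 and 0.70 ± 0.72 and were not called. The level on the brightest probe was 13.08 ± 0.33 in Booreana AML1-ETO9a cells and 11.82 ± 0.24 in wild-type control cells. Other genes shared a level that lay away from wild-type control. Over all genes tested, the mean of both groups differed from wild-type control in 494 (5.59%), and 144 of these were at the same level in both groups and detected on all 8 arrays. The 12 farthest, chosen by that rule, are described without a further test.

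Above wild-type control in both states, Cldn11, a tight junction protein, was at 9.78, 10.85, 10.15 and 10.25 in wild-type AML1-ETO9a cells, against 9.82, 10.49, 10.31 and 10.65 in Booreana control cells. Lmna, which encodes the nuclear lamins A and C, was at 11.72, 11.86, 11.85 and 11.52 in wild-type AML1-ETO9a cells, against 12.18, 12.46, 11.74 and 12.06 in Booreana control cells. Gimap1, a GTPase of lymphocytes, was at 10.43, 9.50, 9.99 and 10.09 in wild-type AML1-ETO9a cells, against 9.45, 10.55, 9.93 and 9.53 in Booreana control cells. The arrays of the 2 groups overlapped in each, and the wild-type control means were 7.96 ± 0.35, 9.98 ± 0.31 and 7.83 ± 0.21. Esam, an adhesion molecule of endothelium and stem cells, Clec10a, a macrophage lectin, and Dmwd, a WD repeat gene, completed this set, with differences between the states of 0.27 ± 0.34, 0.21 ± 0.34 and -0.11 ± 0.22. Their means in wild-type AML1-ETO9a cells were 7.71 ± 0.55, 9.53 ± 0.52 and 10.46 ± 0.30, against 5.48 ± 0.39, 7.51 ± 0.28 and 8.81 ± 0.29 in wild-type control cells. Booreana AML1-ETO9a cells, which carry both changes, were above either state for Cldn11 (12.03 ± 0.56), Esam (9.30 ± 0.38) and Clec10a (10.59 ± 0.34), and near them for Lmna (12.20 ± 0.11), Gimap1 (10.35 ± 0.13) and Dmwd (10.62 ± 0.39).

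Below wild-type control in both states, Bace1, a membrane protease, was at 8.46, 8.48, 8.26 and 7.21 in wild-type AML1-ETO9a cells, against 8.36, 8.38, 7.76 and 7.34 in Booreana control cells. Cldn15, another claudin, was at 9.06, 8.82, 8.74 and 9.59 in wild-type AML1-ETO9a cells, against 8.81, 8.99, 9.34 and 9.20 in Booreana control cells. Gpc1, a heparan sulfate proteoglycan, was at 11.13, 11.63, 11.89 and 10.93 in wild-type AML1-ETO9a cells, against 11.19, 10.59, 11.14 and 10.98 in Booreana control cells. Again the arrays overlapped, and wild-type control means were 10.39 ± 0.23, 11.28 ± 0.32 and 12.78 ± 0.18. Mogat2, an acyltransferase of fat synthesis, Rhou, a small GTPase, and Ifnlr1, a receptor chain for type III interferons, had differences between the states of -0.35 ± 0.30, 0.12 ± 0.36 and -0.01 ± 0.36. Mogat2 lay nearest the edge of the band of these 6, with an interval of -0.998 to 0.30. The mean of Bace1 was lowest in Booreana AML1-ETO9a cells, at 5.89 ± 0.40.

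**Figure D4:**
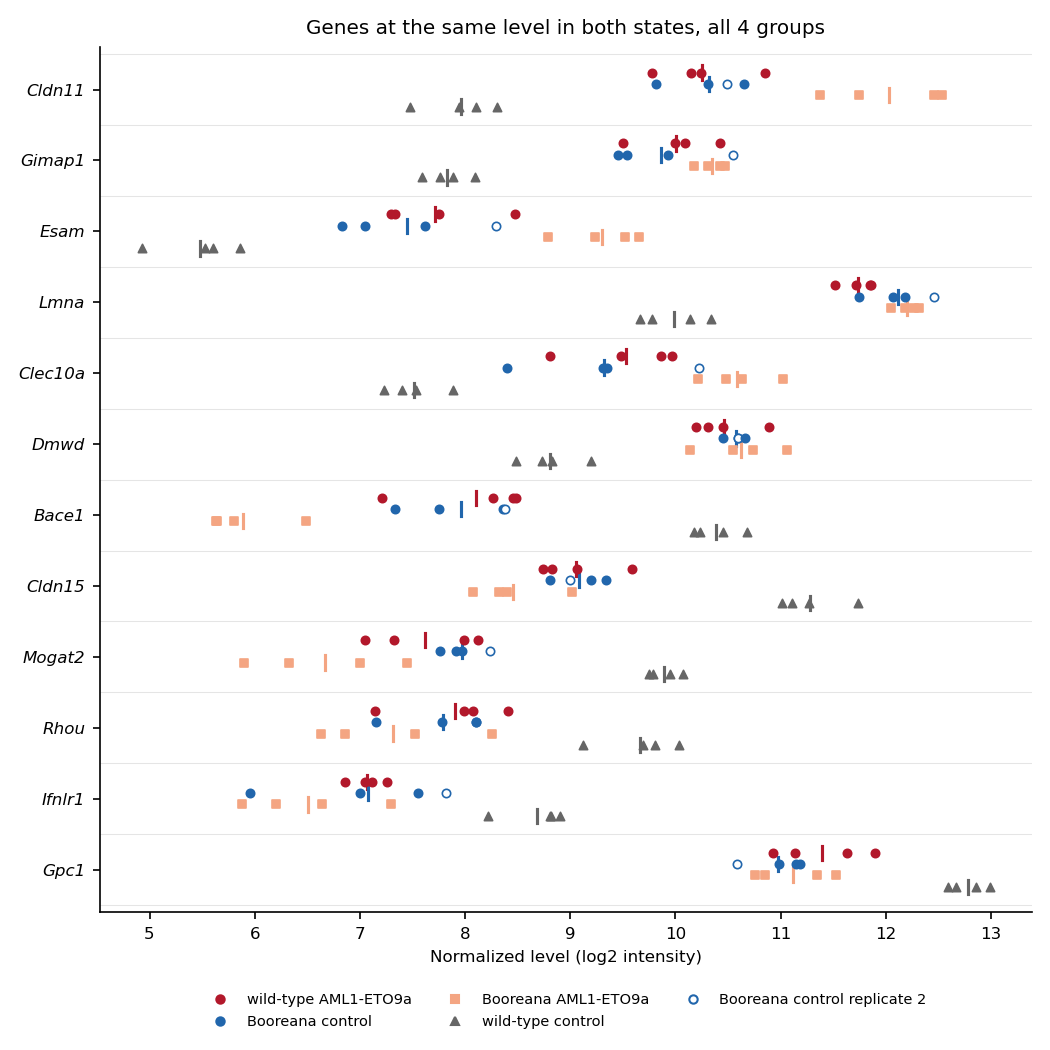
Normalized log2 level, 1 point per array, of the 12 genes at the same level in wild-type AML1-ETO9a and Booreana control cells and farthest from wild-type control, 6 above it and 6 below. Open circles mark Booreana control replicate 2. The points of both states overlap in each gene, with differences of -0.38 to 0.42, while the wild-type control points lie apart.

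Leaving out Booreana control replicate 2 changed part of the calls. Of the genes called with all arrays, 103 were not called without it, and 148 were called only without it. Lyz2, Igf1r, Myc and Cebpa were named genes that it moved: on that array Lyz2 read 5.86, Igf1r 5.60, Myc 4.88 and Cebpa 5.06, all near background, while the other 3 Booreana arrays read at least 13.004, 9.35, 8.56 and 7.29. The 12 largest differences on each side moved by at most 0.41 on the log2 scale without it, the most for Ccl7.

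**Figure D5:**
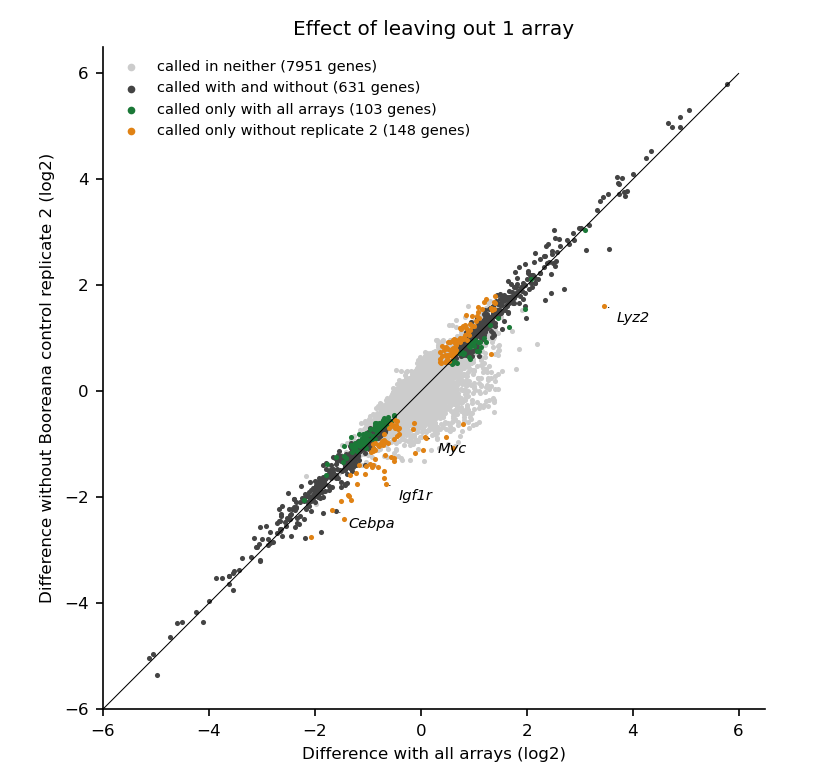
Difference between the groups with all arrays (x axis, log2) against the difference without Booreana control replicate 2 (y axis, log2), 1 point per gene, coloured by whether the gene was called in both fits, in one or in neither. Lyz2 (3.47 and 1.62), Igf1r (-0.66 and -1.75), Myc (0.08 and -0.86) and Cebpa (-1.61 and -2.26) lie off the diagonal.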

How the data were processed

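RNA of 16 samples was measured on 1-colour Illumina Ref-8 BeadChips for mouse. Per the file headers, the authors deposited signal intensity without normalization, with a detection p-value beside it, for 25697 probes. They also deposited processed values, log2-like by their range, and lumi is named for the series, without a version, per the submitters' processing notes. How these were transformed is unknown, and they served as an alternative only. The software behind the intensities, the slides and the scan dates are not given in the sources used here.

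Background was removed by normexp in limma, fitted through the detection p-values, with an offset of 16. Quantile normalization over the 16 arrays and a log2 transform followed (R 4.3.3, limma 3.58.1). The 8 arrays compared had median raw intensities between 191 and 250. The filter (detection p under 0.05, at least 4 arrays) kept 12760 probes. Symbols were those of the platform annotation: 23978 probes had 1, 0 had several and 1719 had none, and gene identifiers updated 0 symbols. Each of 8833 genes was read from its probe with the highest mean, and the other probes of a gene described are given where their call of a difference differed. A statement of the same level rests on that 1 probe. Another probe of Cdkn1a, Hbs1l and Mogat2 each had an interval that reached past 2-fold. A limma fit of 4 group means to all arrays gave the contrast, wild-type AML1-ETO9a minus Booreana control, unpaired and two-sided, with Benjamini-Hochberg adjustment over the 12760 probes. A gene was called at an adjusted p under 0.05, and was at the same level where the 95% interval lay within 2-fold. The refit without Booreana control replicate 2 repeated every step. For a probe that one group's arrays never detected, "at least N-fold" sets the other group's mean against a floor: on each array, the lowest detected signal, or the probe's own where that is higher. Precision is limited by the number of arrays.

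The comparison, gene lists and naming rule were chosen with earlier results of these data known. The rule named the 12 largest differences each way among called genes without overlap between the groups. It added up to 4 called members of each list by smallest adjusted p and members needed to say what did not pass. It also added genes central to c-Myb and AML1-ETO, of which Kit had no probe under its name. It also took the 6 genes each way at the same level but farthest from wild-type control. Lists were described by counts and medians, with no set test, and promoters were matched by symbol. The fit was tested on simulated data. Alternatives were other background corrections, normalizations, filters and samples, array weights, a replicate block and each of the 8 arrays left out in turn.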

Additional observations from a re-analysis of the deposited data

Results flagged for a closer look

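Of 216 groups of 4 arrays examined, 17 held 1 array far from the other 3, where chance flags about 1 in 20 groups. The gap to the nearest array, as a share of the group's range, exceeded Dixon's critical value for 4 samples. Values below are the log2 level on the array set apart against the range of the other 3.

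In wild-type AML1-ETO9a cells, replicate 4 was low for Ccl12 (8.85 against 10.93 to 11.31), Ear6 (8.11 against 9.21 to 9.41) and Prg2 (11.87 against 12.999 to 13.06), and high for Socs3 (11.46 against 11.20 to 11.23). Replicate 1 was high for Gpx3 (10.82 against 9.90 to 9.99) and Rnase6 (7.06 against 5.37 to 5.64), and replicate 3 for Cd14 (11.90 against 11.21 to 11.31).

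In Booreana control cells, replicate 2 was high for Saa3 (6.08 against 4.88 to 5.08), Gp5 (9.45 against 8.52 to 8.63) and Pmvk (10.002 against 9.04 to 9.11). It was low for Myc (4.88 against 8.56 to 8.80) and Hbs1l (10.90 against 11.47 to 11.53), and its mean correlation with the other arrays was 0.845 against 0.935 to 0.950. Replicate 1 was low for Bex4 (11.50 against 12.01 to 12.09) and high for Zfpm1 (13.42 against 12.99 to 13.05). Replicate 3 was high for Csf3r (9.07 against 7.60 to 7.78) and Ifitm1 (13.31 against 12.97 to 13.01). In all, 10 of the 17 lay in the Booreana control group, 6 of them on replicate 2. No cause was tested.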

How the results depend on the processing

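The count of 734 called genes was 783 without background correction, 768 with the authors' processed values, 700 with no filter on detection, 642 with arrays scaled to the same median, 532 with probes detected on all 8 arrays, 503 without normalization between arrays (242 higher and 261 lower), and 416 with only the 8 arrays of both groups (180 higher and 236 lower), where fewer arrays estimate the spread. With array weights it was 1095, of which 584 were higher. Leaving out each of the 8 arrays in turn gave 562 to 779 called genes, 260 to 386 higher, 302 to 393 lower and 4958 to 5872 at the same level. Genes at the same level numbered 1667 with an interval within 1.5-fold in place of 2-fold, and 13333 of 16593 with no filter, where undetected probes enter; the authors' values gave 8089 on their narrower scale. The cause of the other shifts was not tested.

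Deviations of same-numbered arrays correlated at -0.61, -0.35, 0.12 and 0.12, and 1 of 4 numbers matched best with its own. With the replicate block, 822 genes were called and 5723 were at the same level, against 734 and 5589 without it. So few values, 1 of them from the noisy Booreana control replicate 2, do not settle whether equal numbers mark a pairing.

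Over all alternatives, 82 named genes called with all arrays kept direction in 1363 values, and 107 of these missed the threshold. Of 388 values for 23 genes not called, 42 (in 13 genes) had the opposite sign, 1 of them past the threshold: Myc, -0.86 without Booreana control replicate 2 against 0.08 with all arrays (-0.86 to 0.44 over single arrays left out). Another 3 passed it in the same direction, Bcl2 with array weights (-1.38) and without that array (-1.37), and Myb without Booreana control replicate 4 (-1.19). Of 1088 list counts, 975 were within 1.5 times. Groups of 4 arrays leave 28.6% of genes settled neither way, and signals near background limit the sizes of the largest differences.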
